A study of Homo sapiens with 24 samples.

Results

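The genes described here are GAS5 and 8 other non-coding host genes of small nucleolar RNAs (snoRNAs): ZFAS1, SNHG1, SNHG5, SNHG6, SNHG7, SNHG8, SNHG12 and SNHG15. They were taken by symbol from the gene count tables of 2 human pancreatic cancer cell lines, where all 9 were found among 25168 gene rows. The lines, PANC1 and BXPC3, had been treated for 24 h with the combination of SR4 and lonidamine, with SR4 alone at 5 µM, with lonidamine alone at 300 µM, or with vehicle. The labels do not give the doses within the combination separately. SR4 is known as an uncoupler of mitochondrial respiration, and lonidamine as an inhibitor of hexokinase and of pyruvate and lactate transport. Each line had 3 libraries in each of 4 groups, which gives 24 libraries in all. Nothing in the labels says that the libraries of a group came from separate cultures, so the p-values measure the spread between these libraries, which may be technical.

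snoRNAs guide the chemical modification of ribosomal RNA, and in human cells most of them are cut out of the introns of host genes. Several hosts code for no long protein: their spliced, polyadenylated RNA has short reading frames, is engaged by ribosomes and is destroyed by nonsense-mediated decay, a surveillance pathway that needs translation. Such hosts are therefore known to accumulate when translation is blocked. Many of them begin with a 5′ terminal oligopyrimidine tract, a run of C and T at the start site that they share with the ribosomal protein genes and that makes translation of an mRNA sensitive to growth signals.

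The start sites of the members are shown to look for a run of C and T there. Entries of the RefSeq promoter table (GRCh38.p14) were used for 7 of the 9 members. SNHG15 is not in it, and SNHG6 was left out of the search. The counts of members' promoters below therefore cover these 7 alone, whereas the share of all promoters covers the whole table. The 70 bases printed run from 40 bases before the annotated start, with the start as the base 41 of each line, and capitals mark the unbroken run of C and T that holds the start base and any TATAA found upstream of it. For GAS5 the annotated RefSeq start lies 1056 bases upstream of the start that the largest number of GENCODE 29 transcripts share (6 of 29), so the first 30 bases of those 6 transcripts are given instead (GRCh38), with the opening run of C and T in capitals.
ZFAS1, chr20:49278602-49278671, plus strand: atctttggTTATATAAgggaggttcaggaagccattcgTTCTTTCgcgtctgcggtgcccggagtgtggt
SNHG5, chr6:85678704-85678773, minus strand: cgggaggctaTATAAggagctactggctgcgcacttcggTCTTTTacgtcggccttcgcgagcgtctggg
SNHG8, chr4:118278722-118278791, plus strand: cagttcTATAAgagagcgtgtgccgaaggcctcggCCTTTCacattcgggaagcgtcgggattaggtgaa
SNHG7, chr9:136728155-136728224, minus strand: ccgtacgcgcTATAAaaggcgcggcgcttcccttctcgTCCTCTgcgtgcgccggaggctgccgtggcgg
SNHG12, chr1:28581844-28581913, minus strand: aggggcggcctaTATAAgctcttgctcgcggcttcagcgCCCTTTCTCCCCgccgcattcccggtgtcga
SNHG1, chr11:62855856-62855925, minus strand: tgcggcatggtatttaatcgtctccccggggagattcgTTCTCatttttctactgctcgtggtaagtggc
GAS5, chr1:173867960-173867989, minus strand: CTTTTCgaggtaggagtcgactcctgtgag

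A run of C and T of at least 5 bases held the annotated start in 6 of the 7 promoters, against 9.60% of the 35116 promoters in the table and 65.4% of the 81 entries for genes of the ribosomal protein and elongation factor list. The exception was GAS5 at its RefSeq start, where the run was 0 bases long, while the shared GENCODE start opened with a run of 6. The run was 12 bases in SNHG12, 7 in ZFAS1, 6 in SNHG5, SNHG7 and SNHG8, and 5 in SNHG1. In all 6 it began upstream of the annotated start, and in SNHG8 it ended at the start base. Its length is therefore not that of a tract at the start of the annotated RNA. The letters TATAA, searched on both strands with their first base between 40 and 21 bases upstream of the start, were found in 5 of the 7 promoters and in 4.69% of all promoters. In ZFAS1 a match on the other strand overlapped the one on its own strand. These matches describe letters in an annotated window and show neither a binding site nor where transcription began in these cells.

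The libraries held 8873041 to 11822495 counts in PANC1 and 9142433 to 11470973 in BXPC3. The members' counts ranged from 57 to 3763 per library, and all 9 passed the low-count filter in both lines. Levels are given as CPM, counts relative to the library size after TMM scaling within each line, and changes as log2 fold changes with their standard errors from edgeR's quasi-likelihood test. A change was called at a Benjamini-Hochberg adjusted p under 0.05 over all genes tested. The 3 comparisons with vehicle within a line share their vehicle libraries. Epithelial markers fitted the labelled cell type, all 7 being detected in both lines.

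Per kilobase of the length deposited with the table, the order of the members in vehicle-treated PANC1 ran from SNHG5, at 27.5 ± 0.579 CPM per kb (SD, n = 3), to SNHG12, at 2.56 ± 0.341. SNHG6 (20.4 ± 0.453) and ZFAS1 (19.9 ± 1.20) lay next below SNHG5 and did not differ beyond their spread, and neither did GAS5 (14.5 ± 0.778) and SNHG1 (13.04 ± 1.15). In vehicle-treated BXPC3, ZFAS1 led at 44.6 ± 0.844 CPM per kb, and SNHG12 was again last at 2.96 ± 0.902. GAS5 (15.5 ± 0.406) and SNHG1 (16.1 ± 1.04) did not differ beyond their spread there either. With the combination, ZFAS1 and GAS5 were the 2 highest in PANC1, at 108 ± 1.73 and 89.5 ± 2.31 CPM per kb, and also in BXPC3, at 165 ± 2.91 and 62.9 ± 1.35. SNHG12 (5.67 ± 0.461) was lowest of the 9 in combination-treated PANC1 and SNHG15 (4.48 ± 0.573) in combination-treated BXPC3.

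SR4 raised most of these host RNAs in both lines, and so did the combination. Lonidamine alone divided them: GAS5, ZFAS1, SNHG5 and SNHG8 rose in both lines, SNHG7 fell in both, and the rest fell in 1 line or did not pass the test. The summed level of the 9 members was 988 to 998 CPM with the combination, 963 to 997 with SR4 and 503 to 516 with lonidamine, against 287 to 312 with vehicle, in PANC1. In BXPC3 the sums were 980 to 1021, 809 to 824 and 545 to 574 CPM, against 369 to 378 with vehicle. In bulk RNA of this kind, a change in the number of cells that make an RNA and a change in RNA per cell cannot be told apart.

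With the combination, all 9 members rose and 0 fell in PANC1, where 40.1% and 40.9% of 12514 genes were called higher and lower. In combination-treated BXPC3, 8 rose and 0 fell, against 39.7% and 39.5% of 12920 genes. With SR4, 9 rose and 0 fell in PANC1 (35% and 36.7% of genes), and 8 rose and 0 fell in BXPC3 (33.4% and 33.9%). With lonidamine, 4 rose and 2 fell in PANC1 (35% and 34.2% of genes) and 4 rose and 2 fell in BXPC3 (34.8% and 32.7%), which is not far from the shares over all genes. The members' median log2 change was 1.59 with the combination, 1.56 with SR4 and 0.25 with lonidamine in PANC1, where the median of all tested genes lay between -0.02 and 0.01. In BXPC3 it was 1.25, 0.69 and 0.16, with all-gene medians between 0.00 and 0.03. The groups' libraries did not overlap in any case in which a member was called against vehicle. The share of all genes without such overlap was not counted, so this is not read as particular to the members. The gap was narrowest for SNHG8 with lonidamine in PANC1. There the lowest treated and the highest vehicle library both stood at 13.1 CPM to the digits given.

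**Figure D1:**
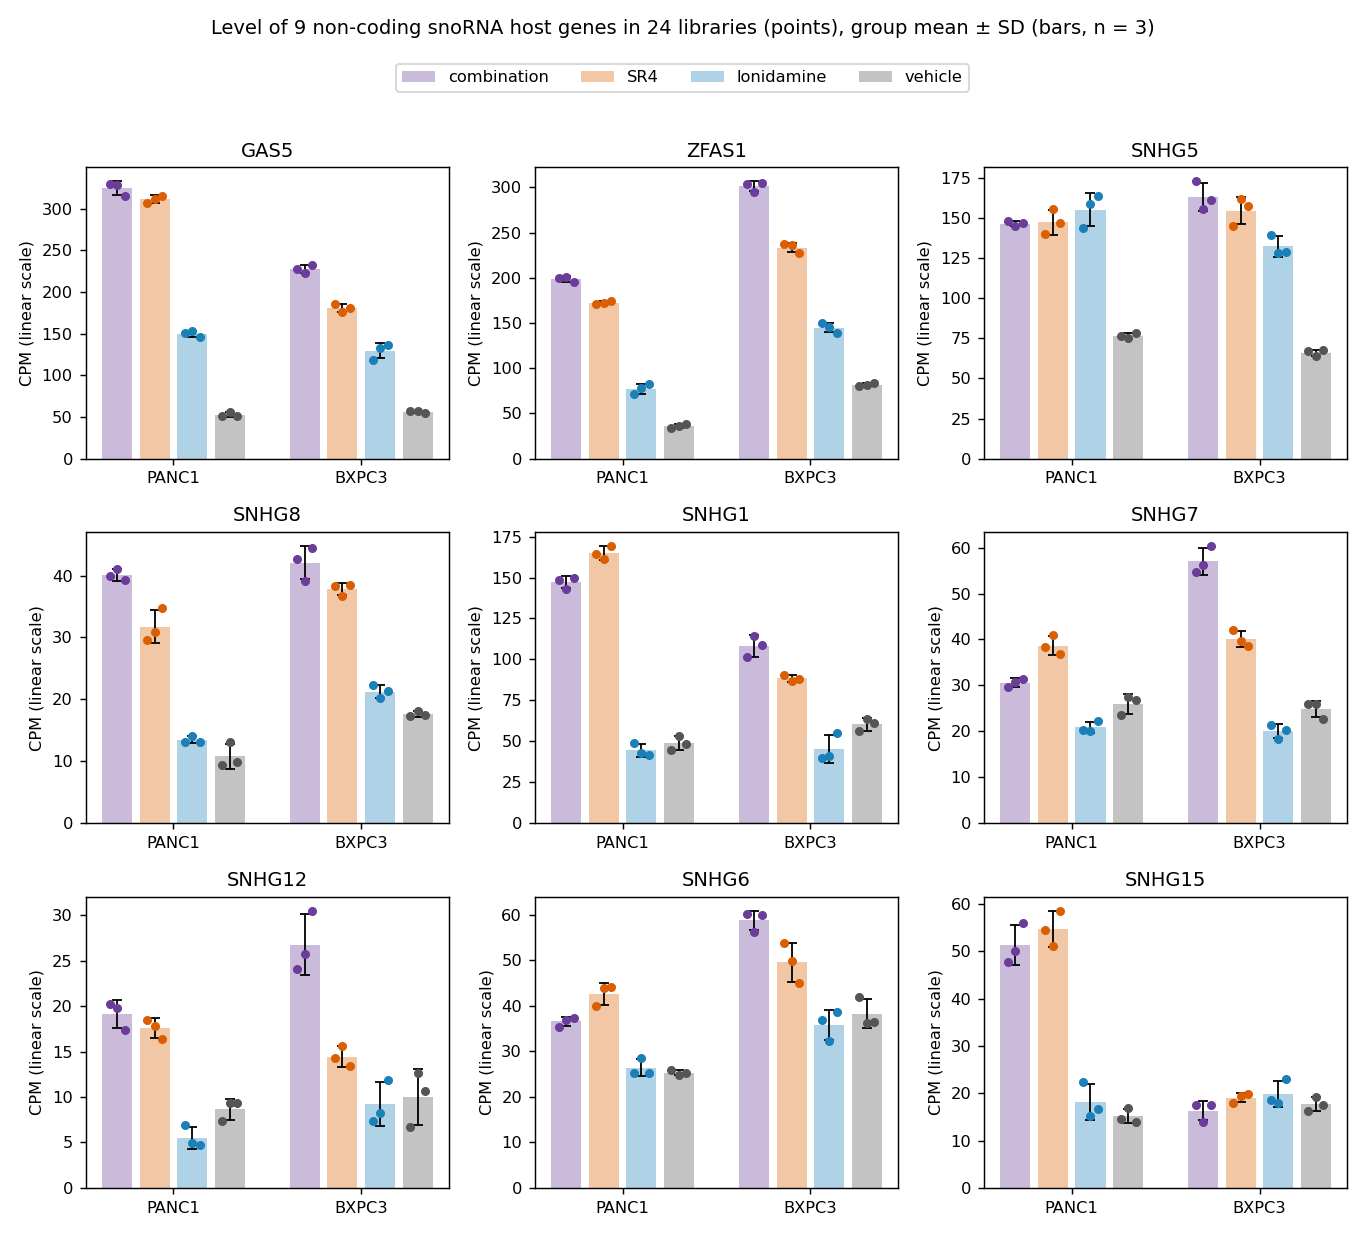
Level of each member in every library, in CPM on a linear axis (points), with the group mean and SD (bars and whiskers, n = 3), for PANC1 on the left and BXPC3 on the right of each panel. GAS5 and ZFAS1 are highest with the combination and SR4 and intermediate with lonidamine in both lines, and SNHG15 in PANC1 is raised under SR4 and the combination, with 47.7 to 58.6 CPM against 14.0 to 16.9 CPM with vehicle.

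GAS5 (growth arrest-specific 5; chr1:173863900-173868882, minus strand) hosts box C/D snoRNAs and is the classic example of a host RNA that builds up in growth-arrested cells. In PANC1, GAS5 stood at 330, 329 and 315 CPM with the combination, 307, 312 and 315 CPM with SR4, 151, 153 and 146 CPM with lonidamine, against 50.7, 55.9 and 51.4 CPM with vehicle. The combination and SR4 libraries overlapped and lay far above those of lonidamine, which in turn lay well above vehicle. BXPC3 had 228, 223 and 233 CPM with the combination, 185, 176 and 181 CPM with SR4, 119, 133 and 136 CPM with lonidamine, against 57.2, 56.7 and 54.5 CPM with vehicle. Here the 4 groups stood apart from each other. GAS5 had the largest change of the 9 members under the combination and SR4 in both lines: 2.62 ± 0.04 (adjusted p = 3.28e-27) and 2.56 ± 0.05 (adjusted p = 1.51e-26) in PANC1, and 2.02 ± 0.05 (adjusted p = 6.01e-23) and 1.69 ± 0.05 (adjusted p = 1.09e-20) in BXPC3. These are 6.16-fold and 5.92-fold in PANC1 and 4.06-fold and 3.22-fold in BXPC3. Lonidamine raised it by 1.51 ± 0.05 in PANC1 (adjusted p = 4.81e-21) and 1.20 ± 0.05 in BXPC3 (adjusted p = 2.47e-17).

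ZFAS1 (chr20:49278178-49295594, plus strand) hosts the SNORD12 family and starts back to back with ZNFX1. In PANC1, ZFAS1 stood at 199, 201 and 195 CPM with the combination, 171, 172 and 174 CPM with SR4, 71, 77.9 and 82.2 CPM with lonidamine, against 34.4, 36.1 and 38.7 CPM with vehicle. BXPC3 libraries had 304, 295 and 305 CPM with the combination, 237, 236 and 227 CPM with SR4, 150, 145 and 139 CPM with lonidamine, against 80.5, 81.2 and 83.5 CPM with vehicle. In both lines the groups ran from the combination through SR4 and lonidamine down to vehicle without overlap. The log2 changes were 2.45 ± 0.05 (adjusted p = 8.68e-25), 2.25 ± 0.06 (adjusted p = 2.73e-23) and 1.08 ± 0.06 (adjusted p = 2.13e-15) in PANC1 with the combination, SR4 and lonidamine. In BXPC3 they were 1.88 ± 0.04 (adjusted p = 5.11e-24), 1.51 ± 0.04 (adjusted p = 2.21e-21) and 0.83 ± 0.04 (adjusted p = 1.87e-15).

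SNHG5 (chr6:85660950-85678736, minus strand), host of SNORD50A and SNORD50B, rose with all 3 treatments in both lines. In PANC1, SNHG5 stood at 148, 145 and 147 CPM with the combination, 140, 156 and 147 CPM with SR4, 144, 159 and 164 CPM with lonidamine, against 76.4, 75.2 and 78.4 CPM with vehicle. The 3 treated groups overlapped and all lay above vehicle. In BXPC3 it stood at 173, 156 and 161 CPM with the combination, 145, 162 and 157 CPM with SR4, 140, 128 and 129 CPM with lonidamine, against 66.9, 64.1 and 67.7 CPM with vehicle. The combination and SR4 groups overlapped, and lonidamine lay just below them. Its log2 change was 0.94 ± 0.05, 0.95 ± 0.05 and 1.02 ± 0.05 with the combination, SR4 and lonidamine in PANC1, and 1.30 ± 0.05, 1.22 ± 0.05 and 1.0 ± 0.05 in BXPC3, with adjusted p values between 4.42e-18 and 4.01e-15.

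SNHG8 (chr4:118278709-118279823, plus strand), the shortest of the 9 in the deposited lengths at 0.921 kb and host of SNORA24, rose strongly with the combination and SR4 and slightly with lonidamine. In PANC1, SNHG8 stood at 39.9, 41.1 and 39.2 CPM with the combination, 29.6, 30.8 and 34.8 CPM with SR4, 13.1, 14.1 and 13.1 CPM with lonidamine, against 9.44, 13.1 and 9.88 CPM with vehicle. The BXPC3 values were 42.7, 39.2 and 44.4 CPM with the combination, 38.4, 36.7 and 38.5 CPM with SR4, 22.2, 20.2 and 21.3 CPM with lonidamine, against 17.3, 18.2 and 17.6 CPM with vehicle. In both lines the combination and SR4 libraries lay well above the rest, and lonidamine sat near vehicle. The log2 changes were 1.89 ± 0.10 (adjusted p = 3.52e-16), 1.56 ± 0.10 (adjusted p = 1.76e-13) and 0.32 ± 0.12 (adjusted p = 0.0178) in PANC1, and 1.25 ± 0.08 (adjusted p = 2.56e-14), 1.10 ± 0.08 (adjusted p = 8.45e-13) and 0.27 ± 0.08 (adjusted p = 0.00654) in BXPC3. The lonidamine call in PANC1 was lost without vehicle replicate 1 (adjusted p = 0.121), vehicle replicate 3 (adjusted p = 0.0859) or lonidamine replicate 2 (adjusted p = 0.0600).

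SNHG1 (chr11:62851988-62855914, minus strand), host of a cluster of box C/D snoRNAs and one of the first host RNAs found to be stabilised by blocking translation, rose with the combination and SR4 and not with lonidamine. In PANC1, SNHG1 stood at 148, 143 and 150 CPM with the combination, 165, 161 and 169 CPM with SR4, 49.2, 42.8 and 41.7 CPM with lonidamine, against 44.9, 53.4 and 48.5 CPM with vehicle. In BXPC3 it stood at 101, 115 and 109 CPM with the combination, 90.8, 86.8 and 87.9 CPM with SR4, 39.6, 41.4 and 54.9 CPM with lonidamine, against 56.2, 63.8 and 61.4 CPM with vehicle. In PANC1 lonidamine and vehicle overlapped, while in BXPC3 the lonidamine libraries lay below vehicle. In PANC1 the log2 change was 1.59 ± 0.06 with the combination (adjusted p = 8.17e-20), 1.76 ± 0.06 with SR4 (adjusted p = 2.53e-20) and -0.14 ± 0.07 with lonidamine (adjusted p = 0.0732). In BXPC3 it was 0.84 ± 0.07 (adjusted p = 8.56e-11), 0.55 ± 0.08 (adjusted p = 3.81e-07) and -0.42 ± 0.08 (adjusted p = 7.83e-05). The lonidamine value in PANC1 passed the threshold without vehicle replicate 1 (adjusted p = 0.0192) or lonidamine replicate 1 (adjusted p = 0.00810).

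SNHG7 (chr9:136721366-136728184, minus strand), host of SNORA17A and SNORA17B, fell with lonidamine in both lines and rose with SR4 and the combination. In PANC1, SNHG7 stood at 29.6, 30.7 and 31.5 CPM with the combination, 38.3, 41 and 36.8 CPM with SR4, 20.3, 20 and 22.3 CPM with lonidamine, against 23.5, 27.4 and 26.9 CPM with vehicle. BXPC3 cells had 54.7, 56.1 and 60.4 CPM with the combination, 42, 39.7 and 38.6 CPM with SR4, 21.5, 18.4 and 20.3 CPM with lonidamine, against 26, 25.9 and 22.8 CPM with vehicle. In both lines the 4 groups stood apart, with lonidamine lowest, but SR4 was highest in PANC1 and the combination in BXPC3. Its log2 change was 0.24 ± 0.08 with the combination (adjusted p = 0.00785), 0.58 ± 0.08 with SR4 (adjusted p = 2.03e-07) and -0.31 ± 0.08 with lonidamine (adjusted p = 0.00175) in PANC1. In BXPC3 it was 1.20 ± 0.07 (adjusted p = 2.30e-14), 0.69 ± 0.07 (adjusted p = 5.95e-09) and -0.31 ± 0.08 (adjusted p = 0.00196). Without vehicle replicate 1 the combination's change in PANC1 was 0.17 and not called (adjusted p = 0.0696).

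SNHG12 (chr1:28578538-28582983, minus strand), host of SNORD99 and 3 box H/ACA snoRNAs (SNORA16A, SNORA44 and SNORA61), had the lowest level per kilobase with vehicle. In PANC1, SNHG12 stood at 20.2, 19.8 and 17.4 CPM with the combination, 18.5, 17.9 and 16.4 CPM with SR4, 6.93, 4.98 and 4.68 CPM with lonidamine, against 7.32, 9.3 and 9.32 CPM with vehicle. The levels in BXPC3 were 24, 25.7 and 30.5 CPM with the combination, 14.3, 15.7 and 13.4 CPM with SR4, 7.38, 8.25 and 11.9 CPM with lonidamine, against 6.69, 12.7 and 10.6 CPM with vehicle. In PANC1 lonidamine lay below vehicle, and in BXPC3 these groups overlapped. The log2 change in PANC1 was 1.15 ± 0.13 with the combination (adjusted p = 3.79e-09), 1.03 ± 0.13 with SR4 (adjusted p = 7.88e-08) and -0.65 ± 0.16 with lonidamine (adjusted p = 0.000647). In BXPC3 it was 1.43 ± 0.15 (adjusted p = 4.16e-09), 0.53 ± 0.17 (adjusted p = 0.00661) and -0.12 ± 0.18 (adjusted p = 0.582). Vehicle replicate 1 of BXPC3 was the lowest of its group, and without it the SR4 change was 0.31 and not called (adjusted p = 0.0824), nor was it called by DESeq2 with all libraries (adjusted p = 0.0580).

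SNHG6 (chr8:66921684-66926398, minus strand), host of SNORD87, changed least among the members that rose with SR4 in BXPC3. In PANC1, SNHG6 stood at 35.4, 36.9 and 37.4 CPM with the combination, 39.9, 43.9 and 44.1 CPM with SR4, 25.3, 28.6 and 25.3 CPM with lonidamine, against 25.9, 24.8 and 25.3 CPM with vehicle. Levels in BXPC3 were 60.2, 56.3 and 59.9 CPM with the combination, 53.8, 49.8 and 45.1 CPM with SR4, 36.8, 32.2 and 38.6 CPM with lonidamine, against 42, 36.3 and 36.5 CPM with vehicle. Lonidamine overlapped vehicle in both lines. The log2 changes were 0.53 ± 0.07 (adjusted p = 2.73e-07), 0.75 ± 0.07 (adjusted p = 5.85e-10) and 0.06 ± 0.08 (adjusted p = 0.508) in PANC1 with the combination, SR4 and lonidamine. In BXPC3 they were 0.62 ± 0.07 (adjusted p = 2.96e-08), 0.37 ± 0.07 (adjusted p = 0.000100) and -0.10 ± 0.08 (adjusted p = 0.284).

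SNHG15 (chr7:44983023-44986961, minus strand), host of SNORA9, was the member whose response to SR4 and to the combination differed most between the lines. In PANC1, SNHG15 stood at 47.7, 50.1 and 56 CPM with the combination, 54.4, 51.1 and 58.6 CPM with SR4, 22.3, 15.1 and 16.8 CPM with lonidamine, against 14.6, 16.9 and 14 CPM with vehicle. In BXPC3 it stood at 17.5, 13.9 and 17.6 CPM with the combination, 17.9, 19.3 and 19.8 CPM with SR4, 18.6, 17.9 and 22.9 CPM with lonidamine, against 16.3, 19.2 and 17.5 CPM with vehicle. In PANC1 the combination and SR4 libraries stood far above the rest, whereas in BXPC3 each of the 3 treated groups overlapped vehicle. The log2 changes in PANC1 were 1.76 ± 0.11 (adjusted p = 7.36e-15), 1.85 ± 0.11 (adjusted p = 5.35e-15) and 0.25 ± 0.12 (adjusted p = 0.0783). In BXPC3 they were -0.11 ± 0.11 (adjusted p = 0.364), 0.11 ± 0.11 (adjusted p = 0.370) and 0.16 ± 0.11 (adjusted p = 0.176). The lonidamine value in PANC1 passed the threshold without vehicle replicate 2 (adjusted p = 0.0430) or lonidamine replicate 2 (adjusted p = 0.0142), and with no low-count filter (adjusted p = 0.0166).

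**Figure D2:**
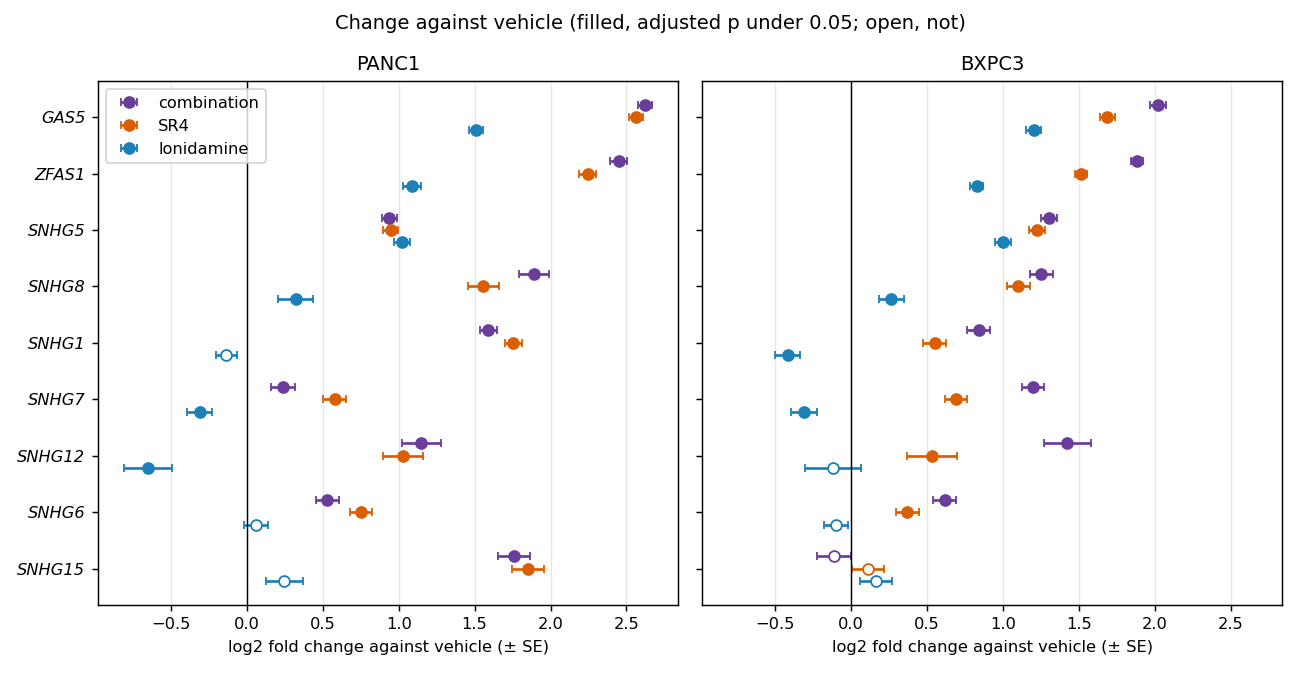
Log2 fold change against vehicle of each member (points, ± SE) in PANC1 on the left and BXPC3 on the right, with filled points where the adjusted p was under 0.05. Combination and SR4 points lie right of 0 for all 9 members in PANC1, from 0.24 to 2.62, while lonidamine points run from -0.65 for SNHG12 to 1.51 for GAS5.

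MALAT1 and NEAT1, nuclear long non-coding RNAs that host no snoRNA, moved with the treatments as well. Their summed level was 1963 to 2039 CPM with the combination, 1415 to 2414 with SR4 and 1328 to 1926 with lonidamine, against 655 to 879 CPM with vehicle, in PANC1. In BXPC3 the sum was 1461 to 1929, 681 to 1196 and 949 to 1979 CPM, against 345 to 405 CPM with vehicle. Their spread within a treated group was wide, as with NEAT1 under lonidamine in BXPC3, which averaged 311 ± 209 CPM against 73.8 ± 17.6 CPM with vehicle (SD, n = 3 each). Their part in the members' changes was not tested. The markers of other cell types moved with treatment too. The 6 fibroblast markers summed to 15.9 to 17.2 CPM with the combination, 11.8 to 13.6 with SR4 and 30.3 to 34.0 with lonidamine, against 81.6 to 86.4 CPM with vehicle, in PANC1, where 4 of them (DCN, LUM, COL1A2 and FAP) were at 0 in every vehicle library. In BXPC3 they summed to 19.0 to 27.1, 26.1 to 27.5 and 16.9 to 21.1 CPM, against 20.7 to 21.97 CPM with vehicle. The 5 endothelial markers summed in BXPC3 to at most 0.891 CPM with the combination, 1.90 with SR4 and 0.698 with lonidamine, against 9.59 to 11.4 CPM with vehicle, and to at most 0.467 CPM in any PANC1 library. The 6 immune markers summed to at most 1.56, 2.02 and 2.10 CPM in BXPC3, against 3.91 to 5.03 CPM with vehicle, and to at most 0.849 CPM in any PANC1 library. The summed level of the 7 epithelial markers was lower with treatment, at 868 to 908 CPM with the combination, 1896 to 2163 with SR4 and 1023 to 1131 with lonidamine, against 3704 to 3860 CPM with vehicle in PANC1. In BXPC3 they were at 3714 to 3756, 5032 to 5213 and 4629 to 4810 CPM, against 6153 to 6681 CPM with vehicle. Their members did not all follow the sum: 7 fell with the combination, 4 with SR4 and 6 with lonidamine in PANC1, with 0 higher, whereas in BXPC3 5 fell and 2 rose with the combination and with SR4, and 4 fell and 3 rose with lonidamine. The part of these markers in the members' changes was not tested.

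The agents were then compared with each other. SR4 gave higher levels than lonidamine for 8 of the 9 members and lower levels for 0 in PANC1 (33.4% and 32.9% of genes), and for 8 and 0 in BXPC3 (23% and 23.7%). The exceptions were SNHG5 in PANC1, at -0.08 ± 0.05 (adjusted p = 0.155), and SNHG15 in BXPC3, at -0.05 ± 0.11 (adjusted p = 0.709). Without lonidamine replicate 1, SNHG5 was called lower with SR4 in PANC1 (-0.13, adjusted p = 0.0167). In PANC1 SNHG1 had the largest such difference, at 1.89 ± 0.06, followed by SNHG12 (1.68 ± 0.14), SNHG15 (1.60 ± 0.10) and SNHG8 (1.24 ± 0.10). In BXPC3 SNHG7 (1.0 ± 0.08) and SNHG1 (0.97 ± 0.08) led, and SNHG5 (0.22 ± 0.05) was the smallest of the 8 called. The doses, 5 µM of SR4 and 300 µM of lonidamine, differ, so this sets the 2 treatments as given side by side.

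Against lonidamine alone, the combination raised 8 members and lowered 0 in PANC1 (37.1% and 37.5% of genes), and raised 8 and lowered 1 in BXPC3 (30.1% and 30.7%). SNHG5 was the member not called in PANC1, at -0.08 ± 0.05 (adjusted p = 0.0992), and it was called lower without lonidamine replicate 1 (-0.14, adjusted p = 0.00870). SNHG15 was the member that fell in BXPC3, at -0.27 ± 0.11 (adjusted p = 0.0358), a call that was lost without lonidamine replicate 3 (-0.16, adjusted p = 0.247) or combination replicate 2 (-0.17, adjusted p = 0.229). The largest gains over lonidamine were those of SNHG12 (1.80 ± 0.13) and SNHG1 (1.73 ± 0.06) in PANC1, and of SNHG12 (1.54 ± 0.16) and SNHG7 (1.51 ± 0.08) in BXPC3.

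Against SR4 alone, the combination was higher for 2 members and lower for 3 in PANC1 (33.2% and 33.4% of genes), shares near the background. It was higher for 6 and lower for 0 in BXPC3 (30.3% and 30.5%). In PANC1 SNHG8 (0.33 ± 0.08, adjusted p = 0.000710) and ZFAS1 (0.20 ± 0.04, adjusted p = 0.000197) rose further, while SNHG7 (-0.34 ± 0.07, adjusted p = 0.000224), SNHG6 (-0.22 ± 0.07, adjusted p = 0.00555) and SNHG1 (-0.16 ± 0.05, adjusted p = 0.00491) were lower. GAS5 differed by 0.06 ± 0.04 (adjusted p = 0.159). In BXPC3 the further rise was largest for SNHG12 (0.89 ± 0.15), SNHG7 (0.51 ± 0.07) and ZFAS1 (0.37 ± 0.04), with GAS5 at 0.33 ± 0.04, SNHG1 at 0.29 ± 0.07 and SNHG6 at 0.25 ± 0.07 (adjusted p = 0.00474). The call of SNHG6 was lost without the unnumbered SR4 library (adjusted p = 0.0503). SNHG8, at 0.15 ± 0.07 (adjusted p = 0.0542), was called without combination replicate 2 (adjusted p = 0.0277) or with DESeq2 size factors (adjusted p = 0.0479).

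Whether the effects of the 2 agents added up on the log2 scale was tested by their interaction, the change with the combination minus the sum of both single changes. It was positive for 1 member and negative for 4 in PANC1 (30.8% and 30% of genes), and positive for 4 and negative for 4 in BXPC3 (23.7% and 25.5%). GAS5, SNHG5 and ZFAS1 fell short of the sum in both lines. They also had the 3 largest lonidamine changes, which the interaction subtracts, so the 2 values are not independent. GAS5 was at -1.45 ± 0.06 (adjusted p = 1.04e-17) in PANC1 and -0.87 ± 0.07 (adjusted p = 4.15e-11) in BXPC3. SNHG5 was at -1.03 ± 0.07 (adjusted p = 4.29e-13) in PANC1 and -0.92 ± 0.07 (adjusted p = 5.14e-11) in BXPC3. ZFAS1 was at -0.88 ± 0.07 (adjusted p = 4.58e-11) in PANC1 and -0.46 ± 0.06 (adjusted p = 2.12e-07) in BXPC3. SNHG12 was the member above the sum in both lines, by 0.77 ± 0.19 (adjusted p = 0.00109) in PANC1 and 1.01 ± 0.24 (adjusted p = 0.000831) in BXPC3.

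The remaining interaction terms were smaller or differed in sign between the lines. In BXPC3 SNHG7 (0.82 ± 0.11, adjusted p = 4.93e-07), SNHG1 (0.71 ± 0.11, adjusted p = 5.93e-06) and SNHG6 (0.34 ± 0.11, adjusted p = 0.00961) were above the sum. In PANC1 SNHG7 (-0.03 ± 0.11) and SNHG1 (-0.03 ± 0.08) were not called, and SNHG6 was below the sum (-0.28 ± 0.10, adjusted p = 0.0203). That call of SNHG6 was lost in 4 of 16 alternatives. They include the fits without lonidamine replicate 2 (adjusted p = 0.0839), SR4 replicate 2 (adjusted p = 0.0531) or combination replicate 1 (adjusted p = 0.0520). SNHG15 was at -0.34 ± 0.15 in PANC1 (adjusted p = 0.0509) and -0.38 ± 0.15 in BXPC3 (adjusted p = 0.0409). In PANC1 SNHG15 was called in 6 of 16 alternatives. Of these, the fits without vehicle replicate 2, lonidamine replicate 2, lonidamine replicate 3, SR4 replicate 2 or combination replicate 3 gave -0.45 to -0.37 (adjusted p between 0.0112 and 0.0391). In BXPC3 its call was lost in 9 of 16 alternatives. Of these, the fits without vehicle replicate 1 or 3, lonidamine replicate 3, SR4 replicate 2, the unnumbered SR4 library or combination replicate 2 gave -0.38 to -0.27 (adjusted p between 0.0593 and 0.148). SNHG8 was not called in PANC1 (0.01 ± 0.15) or in BXPC3 (-0.11 ± 0.11). The difference of an interaction between the lines was not tested.

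**Figure D3:**
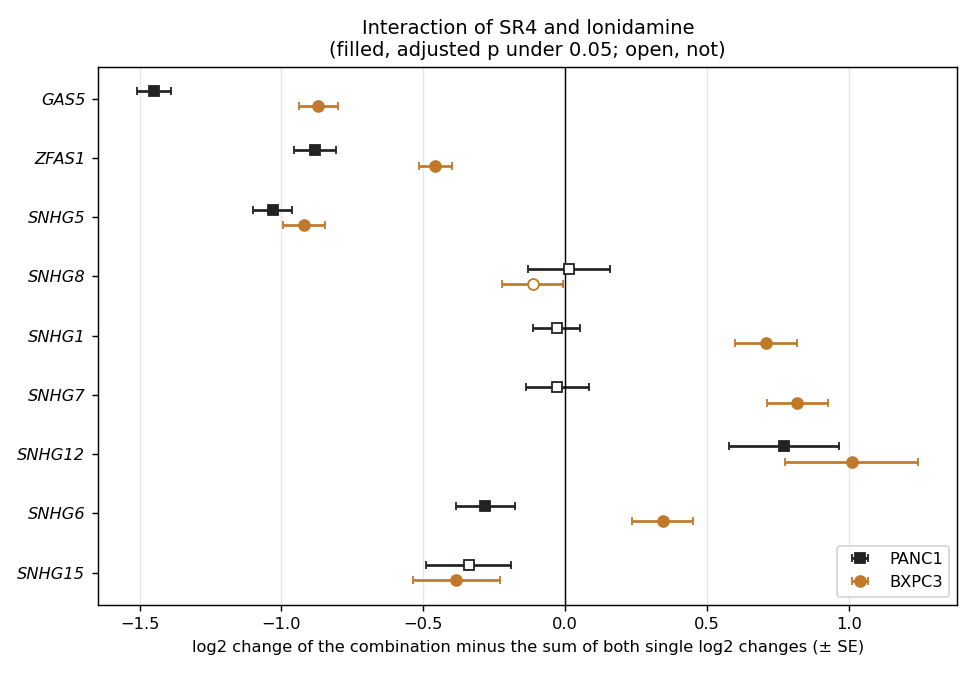
Interaction of SR4 and lonidamine for each member, as the log2 change with the combination minus the sum of both single log2 changes (points, ± SE), with PANC1 as squares above BXPC3 as circles and filled points where the adjusted p was under 0.05. GAS5, SNHG5 and ZFAS1 lie left of 0 in both lines, from -1.45 to -0.46, and SNHG12 lies right of 0 in both, at 0.77 in PANC1 and 1.01 in BXPC3.

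The size of the response was compared between the lines as the change in PANC1 minus the change in BXPC3, in a fit over all 24 libraries. It sets changes from each line's own vehicle level side by side, and not the treated levels. With SR4, 6 members responded more in PANC1 and 1 less (26.2% and 24.9% of 13930 genes were called higher and lower). With the combination, 5 responded more in PANC1 and 2 less (31.7% and 30.2%). With lonidamine, 3 had a higher change in PANC1 and 0 a lower one (23.5% and 18.2%). SNHG15 had the largest difference, at 1.74 ± 0.16 with SR4 (adjusted p = 6.61e-12) and 1.83 ± 0.16 with the combination (adjusted p = 1.54e-12). SNHG1 differed by 1.20 ± 0.10 with SR4 (adjusted p = 7.32e-13) and GAS5 by 0.87 ± 0.07 (adjusted p = 1.11e-13). The opposite order held for SNHG7 with the combination, at -1.0 ± 0.11 (adjusted p = 2.13e-10), and for SNHG5 with SR4, at -0.28 ± 0.08 (adjusted p = 0.00287). SNHG12 was not called with SR4, at 0.49 ± 0.23 (adjusted p = 0.0733), but was without BXPC3 vehicle replicate 1 (0.73, adjusted p = 0.00392), with no low-count filter (adjusted p = 0.0182) and with the compared groups alone in the fit (adjusted p = 0.0486). With lonidamine SNHG12 was at -0.50 ± 0.26 (adjusted p = 0.130) and was called without BXPC3 vehicle replicate 2 (-0.72, adjusted p = 0.0242), BXPC3 lonidamine replicate 1 (-0.66, adjusted p = 0.0490) or PANC1 lonidamine replicate 1 (-0.68, adjusted p = 0.0468), and with no low-count filter (adjusted p = 0.0489).

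**Figure D4:**
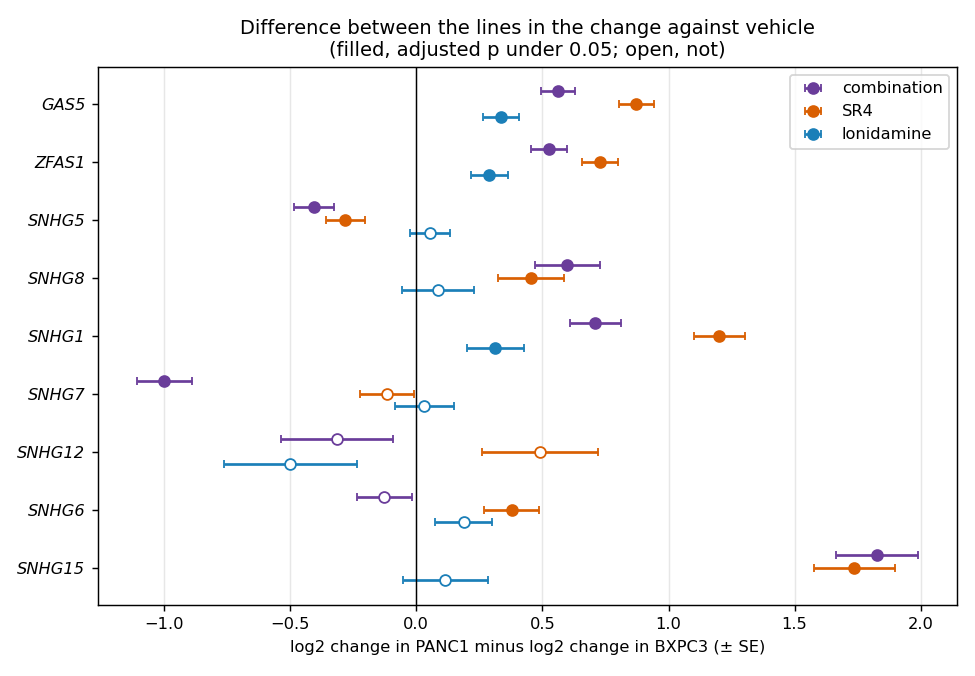
Difference between the lines in the log2 change against vehicle, PANC1 minus BXPC3, for each member and treatment (points, ± SE), with filled points where the adjusted p was under 0.05. SNHG15 lies far to the right with SR4 and the combination (1.74 and 1.83), and SNHG7 with the combination lies furthest to the left (-1.0).

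In vehicle-treated cells, 0 members were higher and 6 lower in PANC1 than in BXPC3, where 41.3% and 43% of genes were called higher and lower. The counts of each line were deposited separately, so line and any batch cannot be told apart here. ZFAS1 differed most (-1.27 ± 0.06, adjusted p = 2.72e-22), followed by SNHG8 (-0.81 ± 0.10, adjusted p = 5.41e-09) and SNHG6 (-0.70 ± 0.08, adjusted p = 4.05e-10). SNHG1 was at -0.41 ± 0.08 (adjusted p = 1.06e-05) and GAS5 at -0.20 ± 0.06 (adjusted p = 0.00137). SNHG15, at -0.32 ± 0.12 (adjusted p = 0.0166), lost its call without BXPC3 vehicle replicate 2 (adjusted p = 0.0700), PANC1 vehicle replicate 1 (adjusted p = 0.0504) or PANC1 vehicle replicate 3 (adjusted p = 0.0707). SNHG12, at -0.31 ± 0.18 (adjusted p = 0.104), gained one without BXPC3 vehicle replicate 1 (adjusted p = 0.00359) and with no low-count filter (adjusted p = 0.0338). The 6 members called lower were also the 6 whose change with SR4 was larger in PANC1. That difference of changes subtracts the vehicle levels, so these results are not independent.

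SNHG1, ZFAS1 and GAS5 have a protein-coding gene on the other strand whose start in the deposited coordinates lay within 1 kb of theirs. SLC3A2, which encodes the heavy chain of amino acid exchangers, starts 188 bases from SNHG1. It averaged 424 CPM with the combination, 337 with SR4 and 255 with lonidamine, against 124 with vehicle, in PANC1, and 534, 475 and 592 CPM, against 177 with vehicle, in BXPC3. With lonidamine SLC3A2 rose by 1.04 ± 0.04 in PANC1 (adjusted p = 3.83e-18) and 1.74 ± 0.03 in BXPC3 (adjusted p = 1.76e-24), whereas SNHG1 was at -0.14 and -0.42. ZNFX1, an RNA helicase-like gene, starts 248 bases from ZFAS1 and was at 0.08 ± 0.05 with the combination in PANC1 (adjusted p = 0.130) and -0.36 ± 0.05 in BXPC3 (adjusted p = 1.00e-07), beside 2.45 and 1.88 for ZFAS1. ZBTB37, a zinc finger gene, starts 800 bases from GAS5 and was at 0.11 ± 0.09 with the combination in PANC1 (adjusted p = 0.229) and 0.58 ± 0.15 in BXPC3 (adjusted p = 0.00120), beside 2.62 and 2.02 for GAS5. The sources used here do not give the strand setting of the counting, so reads in any overlap of such a pair could not be assigned.

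The snoRNAs themselves could not be followed. Of 33 snoRNAs listed for these hosts, 20 have rows in the tables, and these rows held 57 counts in all 12 PANC1 libraries together and 43 in the 12 BXPC3 libraries. None passed the low-count filter. The libraries were made with a kit that captures polyadenylated RNA, which mature snoRNAs lack.

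The genes whose 6 changes against vehicle (3 treatments in 2 lines) came nearest to those of GAS5 were found by the root mean square difference over those 6 values, among 9801 genes tested in both lines whose mean log2 CPM reached 2 in each line. ZFAS1 was the nearest, at 0.29 log2 units. It was followed by KLHL24 (0.29), PRKAB2, a subunit of AMP-activated kinase (0.29), AARS, the alanyl-tRNA synthetase (0.34), IRS2, an insulin receptor substrate (0.35), ULK1, an autophagy kinase (0.37), KDM7A, a histone demethylase (0.39), and MAP1LC3A, an autophagosome protein (0.39). The median over all other genes was 2.01. The other members ranked from 213 for SNHG8 (0.89) to 2419 for SNHG7 (1.68).

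Among other non-coding snoRNA hosts, calls in both directions were found, as over all genes. Of 19 listed, 18 had rows and 13 were tested. With the combination 5 rose and 6 fell in PANC1, and 4 rose and 7 fell in BXPC3, with a median log2 change of -0.64 in PANC1 and -0.41 in BXPC3. Of all genes, 40.1% rose and 40.9% fell in PANC1 and 39.7% rose and 39.5% fell in BXPC3, so these counts are read as no result about the hosts as a group. With SR4 6 rose and 2 fell in PANC1 (35% and 36.7% of all genes) and 6 rose and 1 fell in BXPC3 (33.4% and 33.9%). With lonidamine 3 rose and 7 fell in PANC1 (35% and 34.2%) and 4 rose and 2 fell in BXPC3 (34.8% and 32.7%). C6orf48 (SNHG32) averaged 146 ± 3.21 CPM with the combination and 138 ± 9.35 with SR4, against 51.1 ± 1.94 with vehicle, in PANC1. In BXPC3 it averaged 163 ± 6.61 and 123 ± 2.61, against 56.8 ± 3.0 with vehicle (SD, n = 3 each), a rise of 1.52 ± 0.05 with the combination in both lines. LRRC75A-AS1 (SNHG29) rose with all 3 treatments in both lines, by 0.61 to 1.16. EPB41L4A-AS1 rose with the combination by 1.56 ± 0.13 in PANC1 and 1.73 ± 0.12 in BXPC3. SNHG17 rose with the combination by 1.55 ± 0.10 in PANC1 and was at 0.17 ± 0.11 in BXPC3 (adjusted p = 0.139), and SNHG16 was within 0.35 of vehicle in either direction throughout.

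SNHG3, SNHG4, SNHG19, SNHG20, LINC02001 (SNHG30) and DANCR fell with the combination in both lines. SNHG3 averaged 8.67 ± 0.927 CPM with the combination against 19.2 ± 1.94 with vehicle in PANC1, and 11.1 ± 2.19 against 17.1 ± 3.0 in BXPC3 (SD, n = 3 each), changes of -1.15 ± 0.15 and -0.62 ± 0.19. DANCR averaged 9.96 ± 0.600 CPM with the combination against 17.8 ± 0.525 with vehicle in PANC1, and 16.7 ± 1.96 against 22.2 ± 0.906 in BXPC3. The changes with the combination were -1.54 in PANC1 and -1.21 in BXPC3 for SNHG4, -0.99 and -0.89 for SNHG19, -0.72 and -1.12 for SNHG20, and -0.87 and -1.63 for LINC02001. These changes rest on few reads. The highest count in any library was 75 for SNHG4, 34 for SNHG19, 71 for SNHG20 and 44 for LINC02001. SNHG10 fell with the combination in BXPC3 (-0.97) and was at -0.64 in PANC1 (adjusted p = 0.0642), and SNHG11 was not called with the combination, at 0.20 in PANC1 and 0.02 in BXPC3. The count of SNHG10 was also low, at most 49 in a library.

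Protein-coding snoRNA hosts were also called in both directions, with the combination in PANC1 at shares near those of all genes. Of 42 tested, 18 rose and 15 fell with the combination in PANC1 (40.1% and 40.9% of all genes), with a median of 0.00. In BXPC3 26 rose and 12 fell (39.7% and 39.5%), with a median of 0.29. With SR4, 28 rose and 7 fell in PANC1 (35% and 36.7%), and 28 rose and 10 fell in BXPC3 (33.4% and 33.9%). With lonidamine, 10 rose and 17 fell in PANC1 (35% and 34.2%), and 23 rose and 10 fell in BXPC3 (34.8% and 32.7%). TAF1D, a subunit of the RNA polymerase I selectivity factor, averaged 301 ± 4.90 CPM with the combination, 253 ± 2.03 with SR4 and 68.8 ± 7.09 with lonidamine, against 62.6 ± 2.14 with vehicle, in PANC1 (SD, n = 3 each). HSPA8, a heat shock chaperone, was at -1.52 with the combination in PANC1 and -0.55 in BXPC3. TPT1, a translation-related protein whose mRNA also carries the pyrimidine tract, was at 0.84 in PANC1 and 1.30 in BXPC3.

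The ribosomal protein and elongation factor genes, which are known for the pyrimidine tract, had smaller median changes than the 9 members with the combination and with SR4 in both lines. Of 80 tested, 64 rose and 3 fell with SR4 in PANC1 (35% and 36.7% of all genes), with a median of 0.29. In BXPC3 72 rose and 0 fell (33.4% and 33.9% of all genes), with a median of 0.33. With the combination 15 rose and 35 fell in PANC1 (median -0.08), and 65 rose and 7 fell in BXPC3 (median 0.29). All genes stood at 40.1% and 40.9% in PANC1 and 39.7% and 39.5% in BXPC3. With lonidamine 13 rose and 25 fell in PANC1 (median -0.03), and 57 rose and 6 fell in BXPC3 (median 0.16). Here all genes stood at 35% and 34.2% in PANC1 and 34.8% and 32.7% in BXPC3. EEF1A1, the elongation factor that delivers tRNA to the ribosome, was at 0.20 with the combination in PANC1 and 0.97 in BXPC3, and EEF2, the translocation factor, at 0.25 and 1.19.

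Most mRNAs of stress genes that are known decay substrates rose with each of the 3 treatments. Their list, like the others here, was chosen with earlier results of these data known. Of 13, 10 rose and 2 fell with SR4 and with lonidamine in PANC1 (medians 2.44 and 1.66), and in BXPC3 12 rose and 0 fell with SR4 (median 0.97) and 11 rose and 1 fell with lonidamine (median 1.55). With the combination, 11 rose and 1 fell in each line, with a median log2 change of 2.47 in PANC1 and 1.59 in BXPC3. Of all genes, 35% rose and 36.7% fell with SR4 in PANC1, and 33.4% and 33.9% in BXPC3. The shares were 35% and 34.2% with lonidamine in PANC1 and 34.8% and 32.7% in BXPC3. They were 40.1% and 40.9% with the combination in PANC1 and 39.7% and 39.5% in BXPC3. ATF3, a stress transcription factor, was at 6.27 with the combination in PANC1 and 4.02 in BXPC3, DDIT3 (CHOP) at 4.06 and 4.50, and PPP1R15A, a phosphatase subunit that reverses eIF2α phosphorylation, at 3.28 and 2.95. Genes for the decay factors themselves changed less. Of 19, 13 rose and 4 fell with the combination in PANC1 (median 0.39), and 9 rose and 9 fell in BXPC3 (median 0.07). The BXPC3 counts are not far from the shares of all genes and are read as no result about these factors. CASC3, of the exon junction complex, was at 1.07 in PANC1 and 0.35 in BXPC3, UPF2 at 1.39 and 0.36, and NBAS at 0.97 and 0.68. Neither translation nor RNA decay was measured in these samples.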

How the data were processed

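Gene expression was measured by RNA sequencing in 24 libraries of 2 established cell lines. The deposited tables hold whole-number read counts per gene with no normalization. STAR 2.7.8a, Partek, DESeq2 and the genome build GRCh38 (hg38) are named in the submitters' processing notes, with no role given. The sources used here do not give the strand setting of the counting. Each table also gives a gene length in kilobases, a value of the authors with no further definition, which served to compare levels between genes.

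Counts were tested in R 4.3.3 with edgeR 4.0.16: filterByExpr (minimum count 10), TMM scaling, glmQLFit and glmQLFTest. All 4 groups of a line shared one fit, and differences between lines came from a fit of all 24 libraries. There were 18 comparisons. p-values were adjusted by the Benjamini-Hochberg method over all genes tested in a comparison: 12514 in PANC1, 12920 in BXPC3 and 13930 over both lines. The scripts were tested on simulated data. Alternatives were DESeq2 1.42.0, its size factors, no low-count filter, a replicate block, the compared groups alone, and each library left out in turn.

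The members and gene lists were chosen with earlier results of these data known. Named genes were all 9 members, every tested other non-coding host, up to 3 genes of each other list with the smallest adjusted p for the combination in either line, and the 8 genes nearest GAS5. In the list of other hosts, 3 genes were matched by an older symbol. One of the SR4 libraries in BXPC3 has different replicate numbers in its title and its column, so it was used with no number. Promoters came from RefSeq (GRCh38.p14) and GAS5 transcripts from GENCODE 29.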

Additional observations from a re-analysis of the deposited data

Results flagged for a closer look

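In all, 17 changes of members against vehicle differed between the lines by the test of the difference itself (PANC1 minus BXPC3, edgeR's quasi-likelihood test over 24 libraries). Of 13930 genes, 26.2% were called higher and 24.9% lower with SR4, and 31.7% and 30.2% with the combination. The shares with lonidamine were 23.5% and 18.2%, and the 3 members higher and 0 lower there are not far from them. With SR4, the change was larger in PANC1 for SNHG15 by 1.74 on the log2 scale, for SNHG1 by 1.20, for GAS5 by 0.87, for ZFAS1 by 0.73, for SNHG8 by 0.45 and for SNHG6 by 0.38. It was smaller in PANC1 for SNHG5, at -0.28. With the combination, it was larger in PANC1 for SNHG15 by 1.83, for SNHG1 by 0.71, for SNHG8 by 0.60, for GAS5 by 0.56 and for ZFAS1 by 0.53, and smaller for SNHG7, at -1.0, and SNHG5, at -0.40.

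With lonidamine, GAS5 had the larger change in PANC1, by 0.34 (1.51 in PANC1 and 1.20 in BXPC3), and so did ZFAS1, by 0.29 (1.08 and 0.83). SNHG1 differed by 0.31 (adjusted p = 0.0230), with -0.14 in PANC1 and -0.42 in BXPC3. That call was lost in 9 of its alternatives: by DESeq2, with its size factors, with the compared groups alone, and without BXPC3 vehicle replicate 2, BXPC3 lonidamine replicate 1 or 2, PANC1 vehicle replicate 1 or 3, or PANC1 lonidamine replicate 1. Without BXPC3 lonidamine replicate 1 the difference was 0.21 (adjusted p = 0.154). With the combination, SNHG15 and SNHG7 had the widest gaps between the lines: SNHG15 stood at 1.76 with the combination in PANC1 and -0.11 in BXPC3, and SNHG7 at 0.24 in PANC1 and 1.20 in BXPC3.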

How the results depend on the processing

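Of the 162 values of a member in a comparison, 126 were called. Over 2034 recomputed values of members, 1941 kept their direction and their side of the threshold, 38 lost a call (9 of the 126), 24 gained one and 31 changed sign. No member that was called changed sign. The counts of members that moved were small. For the combination against lonidamine in BXPC3, 0 members were lower by DESeq2 or with the compared groups alone in the fit, against 1, and leaving out single libraries gave 0 to 1. Leaving out single libraries also gave 0 to 1, against 0, for the combination and for SR4 against lonidamine in PANC1, and for the lonidamine difference between the lines, where no low-count filter gave 1.

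Changes of sign concerned uncalled values near 0. SNHG5 for the combination against SR4 in PANC1 was 0.00064 with DESeq2 size factors, 0.00056 by DESeq2 and 0.019 with no low-count filter, and leaving out libraries gave -0.045 to 0.034. For SNHG7, the lonidamine difference between the lines was -0.018 with DESeq2 size factors and -0.018 by DESeq2, and -0.056 to 0.092 over libraries left out. The other ranges over libraries left out for that difference were -0.011 to 0.11 for SNHG5, -0.027 to 0.24 for SNHG8 and -0.054 to 0.21 for SNHG15. They were -0.35 to 0.082 for SNHG12 with lonidamine in BXPC3, -0.12 to 0.063 for SNHG15 under SR4 against lonidamine in BXPC3, and -0.00044 to 0.091 for SNHG6 with lonidamine in PANC1. For the interaction in PANC1 they were -0.096 to 0.045 for SNHG1, -0.069 to 0.039 for SNHG7 and -0.14 to 0.10 for SNHG8. For PANC1 against BXPC3 with vehicle the range was -0.11 to 0.019 for SNHG7. The cause of these shifts was not tested.

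Replicate numbers are shared between groups, but same-numbered libraries did not deviate together: their correlations ran from -0.135 to 0.0856 in PANC1 and from -0.0754 to 0.0775 in BXPC3, so the number was not used as a pairing. With the replicate block, all 72 counts of calls were within 1.5 times, and 3 calls of members were lost: SNHG6 for the combination against SR4 in BXPC3 (0.17, adjusted p = 0.0518), SNHG15 for the interaction in BXPC3 (-0.40, adjusted p = 0.0548) and SNHG15 for PANC1 against BXPC3 with vehicle (-0.21, adjusted p = 0.189). The fit with the compared groups alone was not run for the interaction, which uses all 4 groups. The lowest count of a member in a library was 57, for SNHG12, the member whose values are the least precise.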

Other observations

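Genes of the snoRNP proteins and their assembly factors mostly rose in PANC1 and mostly fell in BXPC3 with the combination. Of 15 tested, 10 rose and 3 fell with the combination in PANC1 (40.1% and 40.9% of all genes), with a median log2 change of 0.31. In BXPC3 1 rose and 12 fell (39.7% and 39.5% of all genes), with a median of -0.71. FBL, the methyltransferase of box C/D snoRNPs, was at 0.00 with the combination in PANC1 and -1.18 in BXPC3. ZNHIT6, an assembly factor of box C/D snoRNPs, was at 0.62 in PANC1 and -1.02 in BXPC3. RUVBL1, an ATPase of snoRNP assembly, was at -0.78 in PANC1 and -1.13 in BXPC3. The difference between the lines was not tested for these genes.

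Of 11 translation control genes, 8 rose and 3 fell with the combination in PANC1 (median 0.86), and 8 rose and 2 fell in BXPC3 (median 0.49). Over all genes, 40.1% rose and 40.9% fell in PANC1, and 39.7% rose and 39.5% fell in BXPC3. SESN2, a sensor that restrains mTORC1, was at 3.74 with the combination in PANC1 and 2.48 in BXPC3, and DDIT4, another inhibitor of mTORC1, at 2.18 in PANC1 and 2.49 in BXPC3. PPP1R15A belongs to this list as well as to the stress mRNAs.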
